A study of Homo sapiens with 6 samples.

Results

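The NF-kB subunits and their feedback inhibitors were taken from RNA-seq counts of the human bladder cancer line 253J. The group holds 10 genes of the 60483 gene IDs listed in each count file, chosen by name. The subunit genes are NFKB1, NFKB2, RELA, RELB and REL, and the IkB inhibitor genes are NFKBIA, NFKBIB and NFKBIE. The ubiquitin regulator genes are TNFAIP3, which encodes a ubiquitin-editing enzyme, and BIRC3, which encodes a ubiquitin ligase. All 10 were matched to a row by Ensembl ID (ENSG00000109320.10, ENSG00000077150.16, ENSG00000173039.17, ENSG00000104856.12 and ENSG00000162924.12 for the subunits, ENSG00000100906.9, ENSG00000104825.15 and ENSG00000146232.13 for the IkB genes, ENSG00000118503.13 and ENSG00000023445.12 for the regulators, in the order named), and all 10 passed the filter on low counts. The libraries were 3 from cells given siRNA against FTO, which encodes an m6A RNA demethylase (siFTO replicates 4, 5 and 6), and 3 from cells given a control siRNA (control replicates 1, 2 and 3). Cells of both groups were the same line, grown in RPMI-1640 medium with serum, and no other agent is named for either group. The time between transfection and harvest is not given in the sources used here, and the study's methods describe a lentiviral shRNA against FTO where the sample labels name an siRNA. Whether the replicates were separate cultures is not stated, so the p-values cover only the spread among the 6 libraries, which may be technical.

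NF-kB is a family of dimeric transcription factors that resting cells hold in the cytoplasm, bound by IkB proteins. When receptors of the TNF, interleukin 1 and Toll-like families are engaged, adaptor proteins and ubiquitin ligases activate the TAK1 and IKK kinases, IkB is phosphorylated and degraded, and the dimers enter the nucleus and bind kappaB sites in DNA. Several of the genes switched on in this way encode IkB proteins and ubiquitin-editing enzymes that damp the same pathway, which makes them a negative feedback arm. The comparison asks how the transcripts of the subunits and of this feedback arm differed when FTO was lowered.

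The promoters of the members are shown here because most of them hold the DNA element that NF-kB itself binds. Promoter sequence was given by RefSeq on GRCh38.p14 for 8 of the 10 members, in 13 windows of 250 bases before and 50 bases after a start site, while RELB and NFKBIE had no window. The older builds hg19 and GRCh37 are listed in the processing notes, and the files give no positions, so these windows describe the genes and were not used for counting. Both strands were searched for the kappaB consensus, given here by name because its letters include ambiguous bases, and overlapping matches were merged into 1 site. The 250 bases before the start are printed from 5′ to 3′ on the strand of the gene, with the matched bases in capitals, for TNFAIP3 at chr6:137867009-137867258 (plus strand), BIRC3 at chr11:102317234-102317483 (plus strand), NFKBIA at chr14:35404750-35404999 (minus strand), REL at chr2:60881324-60881573 (plus strand), window 1 of NFKB1 at chr4:102501109-102501358 (plus strand), and, as a promoter with no match, window 2 of RELA at chr11:65662917-65663166 (minus strand).
TNFAIP3: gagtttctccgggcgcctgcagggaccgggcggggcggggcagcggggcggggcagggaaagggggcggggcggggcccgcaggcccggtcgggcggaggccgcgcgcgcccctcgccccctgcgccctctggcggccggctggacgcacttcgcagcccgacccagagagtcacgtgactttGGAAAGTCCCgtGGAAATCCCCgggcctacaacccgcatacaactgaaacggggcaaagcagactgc
BIRC3: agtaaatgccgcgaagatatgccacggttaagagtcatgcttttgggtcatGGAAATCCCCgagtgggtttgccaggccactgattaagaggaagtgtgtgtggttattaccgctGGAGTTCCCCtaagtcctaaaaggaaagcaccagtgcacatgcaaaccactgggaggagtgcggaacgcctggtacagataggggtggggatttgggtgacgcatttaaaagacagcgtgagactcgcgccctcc
NFKBIA: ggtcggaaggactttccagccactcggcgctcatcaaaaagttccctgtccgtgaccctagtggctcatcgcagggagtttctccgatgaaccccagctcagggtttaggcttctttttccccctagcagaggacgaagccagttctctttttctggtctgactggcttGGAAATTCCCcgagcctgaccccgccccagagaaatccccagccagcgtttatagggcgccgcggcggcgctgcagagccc
REL: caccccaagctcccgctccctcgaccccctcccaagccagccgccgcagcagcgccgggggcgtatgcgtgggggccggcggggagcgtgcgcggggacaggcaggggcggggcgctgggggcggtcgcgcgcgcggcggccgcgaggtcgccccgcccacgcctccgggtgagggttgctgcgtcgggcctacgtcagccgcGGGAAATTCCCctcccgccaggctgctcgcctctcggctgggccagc
NFKB1: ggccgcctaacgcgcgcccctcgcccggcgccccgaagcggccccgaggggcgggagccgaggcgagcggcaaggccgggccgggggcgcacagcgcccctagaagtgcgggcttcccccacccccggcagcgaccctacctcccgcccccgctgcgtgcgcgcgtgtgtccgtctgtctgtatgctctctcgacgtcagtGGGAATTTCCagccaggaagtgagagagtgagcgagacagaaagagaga
RELA: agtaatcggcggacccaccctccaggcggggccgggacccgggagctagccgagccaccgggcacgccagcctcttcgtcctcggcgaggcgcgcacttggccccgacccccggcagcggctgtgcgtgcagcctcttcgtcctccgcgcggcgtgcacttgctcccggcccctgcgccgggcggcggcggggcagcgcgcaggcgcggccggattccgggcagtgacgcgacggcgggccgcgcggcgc

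TNFAIP3 held 2 sites side by side, GGAAAGTCCC from 67 to 58 bases and GGAAATCCCC from 55 to 46 bases before its start. BIRC3 also held 2 sites, GGAAATCCCC from 199 to 190 and GGAGTTCCCC from 135 to 126 bases before the start, and the letters GGAAATCCCC were shared with TNFAIP3. NFKBIA held GGAAATTCCC from 81 to 72 bases before its start, REL held GGGAAATTCCC from 47 to 37 bases, and window 1 of NFKB1 held GGGAATTTCC from 49 to 40 bases. Window 2 of NFKB2 held GGGAATTCCCC and GGGGCTTTCC, window 3 of NFKB2 held GGGGCTTCCC and GGGACTTTCC, and window 2 of NFKBIB held GGGAATTTCCC from 28 to 18 bases before the start and another match after it. Among the members, 7 of the 8 genes with a window held at least 1 match, as did 8 of their 13 windows (61.5%). Over the whole table, 3956 of 35116 windows (11.3%) and 3619 of 27305 genes (13.3%) held a match, and windows with at least 2 sites were 5 of 13 in the members and 349 (0.994%) in all. A match is a description of the letters, not evidence of binding, and neither RELA window held one.

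**Figure D1:**
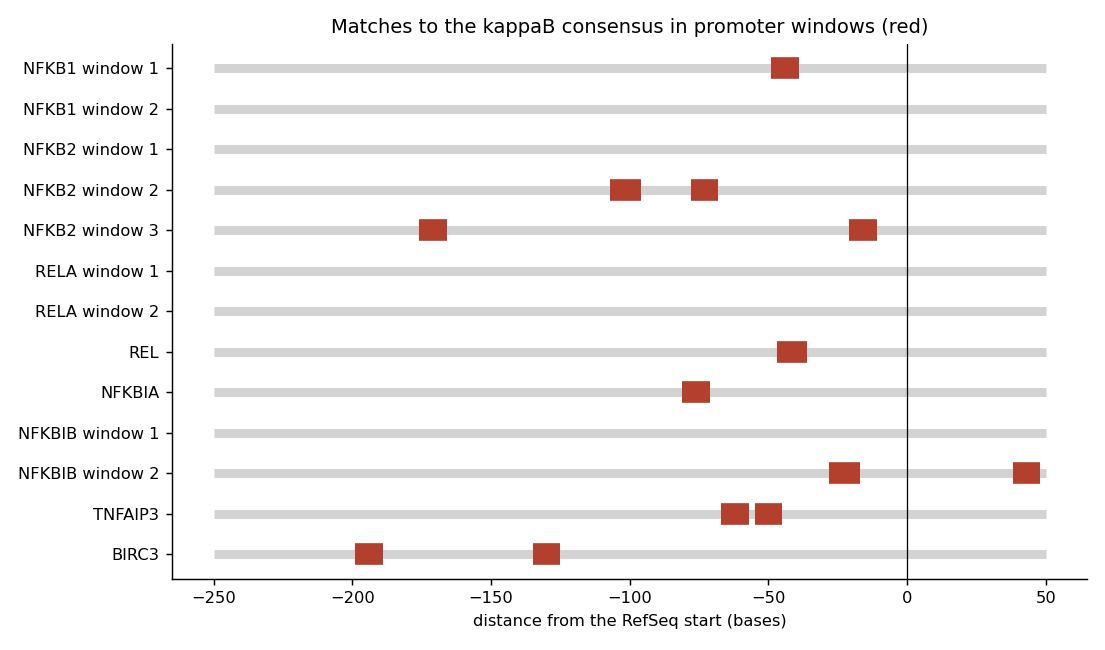
Position of kappaB consensus matches (red blocks) in the 13 promoter windows of 8 members, with distance from the RefSeq start in bases on the x axis and 1 grey bar per window from 250 bases before to 50 bases after the start. Sites before the start lie within 81 bases of it in NFKB1, REL, NFKBIA, NFKBIB and TNFAIP3, and farther away in BIRC3. Those of NFKB2 lie between 176 and 12 bases before the start, and another NFKBIB site lies after it. No red block lies on either RELA bar.

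The total count was 13162731 to 15709975 in siFTO libraries and 10991789 to 19891269 in control libraries. FTO was at 20.2, 20.7 and 15.7 CPM in siFTO replicates 4, 5 and 6, against 31.8, 21.4 and 31.2 CPM in control replicates 1, 2 and 3, where CPM stands for counts scaled to a common library size (TMM). Its log2 fold change was -0.57 (SE 0.16, by edgeR's quasi-likelihood test, adjusted p = 0.0209), with adjusted p of 0.107 without control replicate 1, 0.113 without control replicate 3, 0.0576 with library totals as the scaling, and a value of -0.92 (adjusted p = 0.000690) after a correction for gene length and GC content. The siFTO replicates 4 and 5 stood apart from the other 4 libraries. A list of 8 mesenchymal markers summed to 1772, 2165 and 24.0 CPM in siFTO replicates 4, 5 and 6 and to 14.1 to 15.6 CPM in the controls, with 6 of the 8 at 10 CPM or more in both replicates 4 and 5. A list of 12 fibroblast markers summed to 523.8, 666.3 and 34.8 CPM in siFTO replicates 4, 5 and 6. In the controls the sum was 22.0 to 24.0 CPM. In both replicates 4 and 5, 4 of the 12 were at 10 CPM or more, the collagen genes COL1A1, COL1A2, COL5A1 and COL6A3. COL3A1, PDGFRA and THY1 had at most 2 counts in any library, DCN and LUM at most 1.41 CPM, and POSTN 0. FAP was at 4.53 and 5.04 CPM in replicates 4 and 5 and 0 in the controls, while PDGFRB (6.93 and 6.78 CPM) lay within the control range. A list of 13 leukocyte markers summed to 125.5, 156.0 and 39.5 CPM in siFTO replicates 4, 5 and 6 and to 30.6 to 33.9 CPM in the controls, with 4 of the 13 at 10 CPM or more in both replicates 4 and 5. Among these were CD74 (61.1, 75.3 and 0.0729 CPM in siFTO replicates 4, 5 and 6), HLA-DRA (15.8, 24.7 and 0.146 CPM) and LCP1 (17.2, 17.3 and 0.0729 CPM), each under 0.26 CPM in the controls, while CD3E was at 0 in every library and PTPRC at 1 count in siFTO replicate 4 and 0 in the rest. The remaining leukocyte gene of the 4, CORO1A, was not near 0 in the controls. It was at 24.3, 29.8 and 31.4 CPM in siFTO replicates 4, 5 and 6, against 22.0 to 27.1 CPM in the controls. CORO1A, CD14, CD79A and ITGB2 were not called by edgeR at an adjusted p under 0.05. Endothelial markers summed to at most 2.74 CPM in every library. The 6 epithelial markers summed to 8226 to 10413 CPM in siFTO libraries and 9104 to 11623 CPM in controls, while of 8 urothelial markers PPARG alone reached 10 CPM in any library and UPK1B was at 0 in all, so the defining urothelial markers were nearly absent from cells labelled as bladder cancer. Since a bulk library cannot separate a change in the share of a cell type from a change in RNA per cell, each member is also given for siFTO replicate 6 alone against the controls, in which the lone library is assumed to vary as the controls do.

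The genes for 3 of the 5 subunits, 2 of the 3 IkB inhibitors and both ubiquitin regulators were higher in siFTO cells, and no member was lower. The largest fold difference was that of TNFAIP3, at 10.1 ± 5.47 CPM in siFTO libraries and 2.15 ± 0.713 CPM in control libraries (SD, n = 3 each), and the smallest fold difference among those called was that of RELA, at 86.3 ± 7.12 CPM in siFTO libraries and 68.3 ± 3.27 CPM in control libraries (SD, n = 3 each). The calls are from edgeR's quasi-likelihood test at a Benjamini-Hochberg adjusted p under 0.05 over 14965 genes, of which 19.5% were higher and 17.9% were lower in siFTO cells. Against that background, 7 of 10 members were higher and 0 were lower, and 0 were lower also at an unadjusted p under 0.05 in edgeR and by DESeq2 and limma voom. The median log2 fold change was 0.44 over the members and 0.0057 over all genes tested. In 6 members every siFTO library lay above every control library, as it did for 25.8% of all genes tested.

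With siFTO replicate 6 as the only siFTO library, 0 of the 10 members were called, by the same edgeR test in which 6.17% of 15713 genes were higher, and 3 of 10 (REL, TNFAIP3 and RELB) were higher at an unadjusted p under 0.05. Leaving out a library each time, 1 member was called higher without control replicate 1 or 3 or siFTO replicate 4 (TNFAIP3) and without control replicate 2 (RELB). Calls fell over all genes too, from 2913 of 14965 higher with all libraries. They were 1383 of 16181, 1540 of 15790 and 1794 of 15822 without control replicates 1, 2 and 3, and 1702 of 15407 without siFTO replicate 4. Without siFTO replicate 5 the 3 members REL, TNFAIP3 and BIRC3 were called, and 2137 of 15033 genes were higher. Without siFTO replicate 6 the count was 7 members, and 3826 of 16243 genes were higher. The summed mesenchymal, fibroblast and leukocyte markers were highest in siFTO replicates 4 and 5, and their part in the members' differences was not tested.

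**Figure D2:**
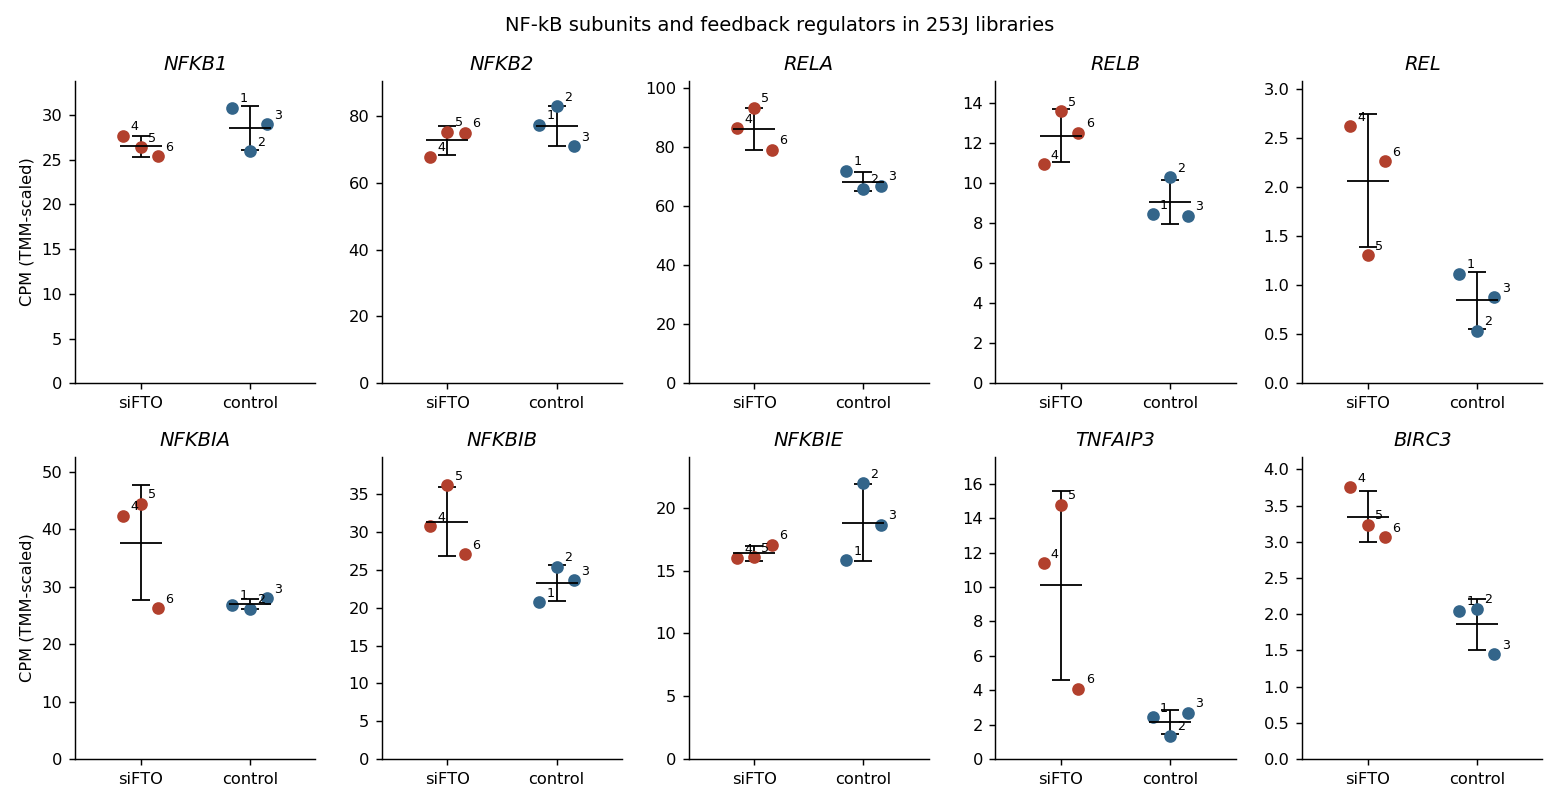
CPM on TMM-scaled library sizes (y axis, from 0) of each of the 10 members in siFTO libraries (red, left) and control libraries (blue, right) of 253J cells. Points are single libraries, numbered by replicate, the long bar is the mean and the whiskers are 1 SD of 3 libraries. TNFAIP3 lies at 4.08 to 14.8 CPM in siFTO and 1.34 to 2.69 CPM in control, and the NFKBIA point of siFTO replicate 6 lies among the controls.

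RELA encodes p65, the subunit with the main transactivation domain of the canonical pathway. It was at 86.5, 93.3 and 79.1 CPM in siFTO replicates 4, 5 and 6, against 72.0, 65.9 and 66.9 CPM in control replicates 1, 2 and 3. All siFTO libraries lay above all controls, and the log2 fold change was 0.34 (SE 0.09, edgeR adjusted p = 0.0155). The call was lost, at an adjusted p of 0.0526 to 0.0709, without control replicate 1, 2 or 3 or siFTO replicate 4 or 5. In siFTO replicate 6 alone the log2 fold change of RELA was 0.21 (edgeR adjusted p = 0.329).

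RELB encodes the transactivating partner of p52 in the non-canonical pathway. It was at 10.97, 13.62 and 12.54 CPM in siFTO replicates 4, 5 and 6, against 8.47, 10.31 and 8.37 CPM in control replicates 1, 2 and 3, again with no overlap between the groups. The log2 fold change was 0.45 (SE 0.15, edgeR adjusted p = 0.0373), and siFTO replicate 6 alone gave a like value of 0.47 (edgeR adjusted p = 0.148). The call was lost without control replicate 1 or 3 or siFTO replicate 4 or 5, at an adjusted p of 0.0514 to 0.137, and also with no filter (edgeR adjusted p = 0.0813) and in DESeq2 (adjusted p = 0.0545).

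REL encodes c-Rel, a subunit best known from lymphocytes. Its counts were 37, 21 and 31 in siFTO replicates 4, 5 and 6, against 12, 8 and 17 in control replicates 1, 2 and 3, or 2.62, 1.31 and 2.26 CPM against 1.12, 0.536 and 0.878 CPM. The groups did not overlap, and the log2 fold change was 1.30 (SE 0.36, edgeR adjusted p = 0.0185), the largest of the subunits. Counts this low carry wide counting error: the 8 counts of control replicate 2 have an exact Poisson 95% interval of 3.45 to 15.8, which covers counting error only. In siFTO replicate 6 alone the log2 fold change of REL was 1.44 (edgeR adjusted p = 0.0605). The call was lost without control replicate 1, 2 or 3 or siFTO replicate 4, at an adjusted p of 0.0628 to 0.110, and after a correction for gene length and GC content (log2 fold change 0.95, edgeR adjusted p = 0.0535). In GENCODE 29, 5702 bases (43.3%) of the REL exons are shared on the same strand with AC010733.2, so its counts depend on how shared reads were assigned.

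NFKB1 and NFKB2 encode the precursors p105 and p100, which are cut to the DNA-binding subunits p50 and p52 and, uncut, hold other subunits in the cytoplasm as IkB proteins do. NFKB1 was at 27.7, 26.4 and 25.4 CPM in siFTO replicates 4, 5 and 6, against 30.8, 25.9 and 28.9 CPM in control replicates 1, 2 and 3, a log2 fold change of -0.11 (SE 0.10, edgeR adjusted p = 0.429). NFKB2 was at 67.8, 75.4 and 75.1 CPM in siFTO replicates 4, 5 and 6, against 77.4, 82.9 and 71.0 CPM in control replicates 1, 2 and 3, a log2 fold change of -0.08 (SE 0.09, edgeR adjusted p = 0.501). For both genes the groups overlapped and no difference was detectable at this depth and number of libraries. The sign of both turned with library totals as the scaling (0.01 for NFKB1 and 0.04 for NFKB2 on the log2 scale), which raised the median of all genes to 0.13. The sign of NFKB2 also turned after a correction for gene length and GC content (0.02). The same correction moved NFKB1 further down, to -0.24 (edgeR adjusted p = 0.0595), lower at an unadjusted p under 0.05. In siFTO replicate 6 alone the log2 fold changes were -0.17 for NFKB1 and -0.04 for NFKB2 (edgeR adjusted p of 0.535 and 0.895).

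Levels between genes were compared per length, as reads per kilobase of GENCODE 29 exons on the CPM scale (RPKM). Each length merged the exons of all annotated transcripts, at 5464 bases for RELA, 4484 for NFKB2 and 13170 for REL. The transcripts expressed may be shorter, so ranks between genes depend on these lengths. In mean CPM, RELA lay above NFKB2 in siFTO libraries (86.3 against 72.8) and below it in control libraries (68.3 against 77.1). NFKB2 had the highest mean of the subunit transcripts, at 16.2 ± 0.954 RPKM in siFTO libraries and 17.2 ± 1.33 RPKM in control libraries (SD, n = 3 each). RELA followed at 15.8 ± 1.30 RPKM in siFTO libraries and 12.5 ± 0.599 RPKM in control libraries, so the pair lay within each other's spread in siFTO cells and apart in control cells. RELA lay above NFKB2 in siFTO replicates 4 and 5 (15.8 and 17.1 RPKM against 15.1 and 16.8 RPKM) and below it in siFTO replicate 6 (14.5 against 16.7 RPKM). NFKB1 was at 4.23 ± 0.184 RPKM in siFTO libraries and 4.56 ± 0.393 RPKM in control libraries, and RELB at 4.08 ± 0.439 RPKM in siFTO libraries and 2.98 ± 0.361 RPKM in control libraries, so these neighbours lay within each other's spread in siFTO cells. REL came last, at 0.156 ± 0.0515 RPKM in siFTO libraries and 0.0641 ± 0.0222 RPKM in control libraries.

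As a share of the summed subunit RPKM, RELA took 36.6% to 40.4% in siFTO libraries and 31.6% to 34.5% in control libraries. NFKB2 took 38.6% to 42.3% in siFTO libraries and 44.6% to 48.5% in control libraries, and the ranges of both genes stayed apart. The share of RELB was 9.22% to 10.5% in siFTO libraries and 7.30% to 8.91% in control libraries, and that of NFKB1 was 9.89% to 11.3% in siFTO libraries and 10.9% to 13.0% in control libraries, with overlap. These shares hold in siFTO replicate 6 as well, which had 36.6% RELA and 42.3% NFKB2. The shares are of 1 total, so a rise in RELA lowers the others by construction. They rest on the same merged exon lengths and are given as a description with no test.

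**Figure D3:**
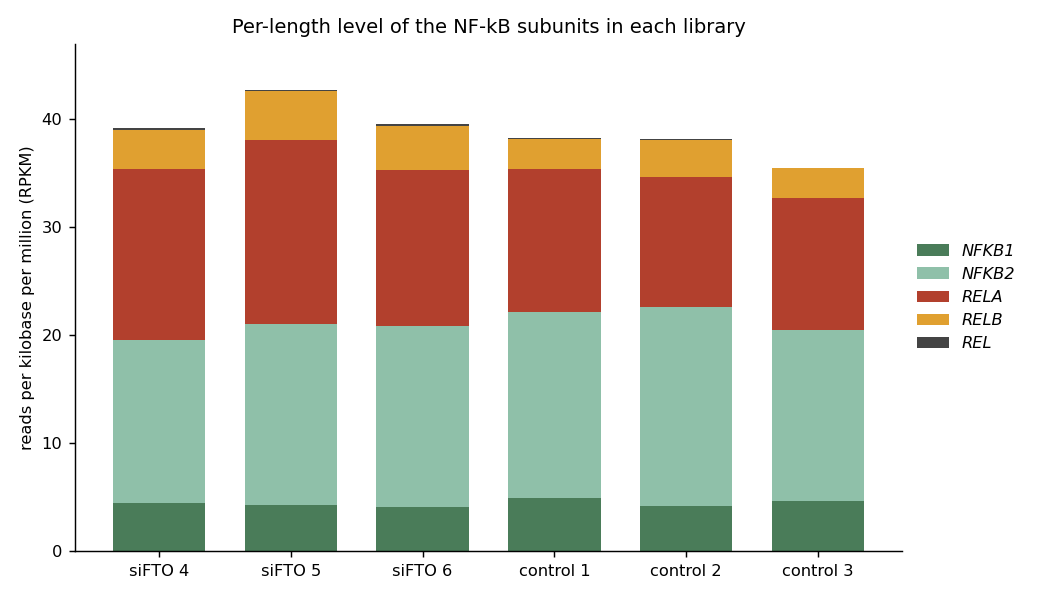
Summed RPKM of the 5 NF-kB subunit transcripts in each of the 6 libraries of 253J cells, siFTO libraries left of control libraries, with 1 stacked bar per library and 1 colour per subunit. RELA makes up 36.6% to 40.4% of a bar in siFTO libraries and 31.6% to 34.5% in control libraries, and REL is barely visible at 0.107% to 0.507%.

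NFKBIA encodes IkB-alpha, the inhibitor that NF-kB induces fastest and that carries dimers back out of the nucleus. It was at 42.4, 44.5 and 26.2 CPM in siFTO replicates 4, 5 and 6, against 26.9, 26.2 and 28.0 CPM in control replicates 1, 2 and 3. The siFTO replicates 4 and 5 were high and siFTO replicate 6 lay within the control range, so the groups overlapped. The log2 fold change was 0.48 (SE 0.17, edgeR adjusted p = 0.0475), just past the threshold. It was -0.04 (edgeR adjusted p = 0.889) for siFTO replicate 6 alone and 0.67 (adjusted p = 0.000132) without that library. The call was lost at an adjusted p of 0.139 to 0.179 without control replicate 1, 2 or 3 or siFTO replicate 4 or 5, with upper-quartile scaling (edgeR adjusted p = 0.0516) and in limma voom (adjusted p = 0.0837).

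NFKBIB encodes IkB-beta, a slower and more stable inhibitor of the same dimers. It was at 30.8, 36.2 and 27.1 CPM in siFTO replicates 4, 5 and 6, against 20.7, 25.5 and 23.6 CPM in control replicates 1, 2 and 3. All siFTO libraries lay above all controls, with siFTO replicate 6 the nearest to them. The log2 fold change was 0.43 (SE 0.13, edgeR adjusted p = 0.0241), and it was 0.22 (edgeR adjusted p = 0.423) in siFTO replicate 6 alone. The call was lost without control replicate 1, 2 or 3 or siFTO replicate 4 or 5, at an adjusted p of 0.0532 to 0.108. After the length and GC correction the log2 fold change of NFKBIB was 0.65 (edgeR adjusted p = 0.00140).

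NFKBIE encodes IkB-epsilon, a further inhibitor of RELA and c-Rel dimers. It was at 16.0, 16.0 and 17.1 CPM in siFTO replicates 4, 5 and 6, against 15.8, 22.0 and 18.7 CPM in control replicates 1, 2 and 3. The log2 fold change was -0.21 (SE 0.13, edgeR adjusted p = 0.242), and the groups overlapped through control replicate 1. Without that library it was -0.32 (edgeR adjusted p = 0.0952), lower at an unadjusted p under 0.05. After the correction for gene length and GC content its sign turned, at 0.0032 on the log2 scale, and in siFTO replicate 6 alone the log2 fold change was -0.15 (edgeR adjusted p = 0.662). Of the summed IkB RPKM, NFKBIE took 15.3% to 22.5% in siFTO libraries and 23.2% to 27.9% in control libraries, the IkB transcript whose share stayed below the controls in every siFTO library. The ratio of summed IkB to summed subunit RPKM was 0.952, 0.950 and 0.741 in siFTO replicates 4, 5 and 6, against 0.690, 0.800 and 0.822 in control replicates 1, 2 and 3, so siFTO replicate 6 lay among the controls.

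TNFAIP3 encodes A20, an enzyme that edits ubiquitin chains on RIPK1 and other signalling proteins and ends NF-kB activation. Its counts were 161, 238 and 56 in siFTO replicates 4, 5 and 6, against 26, 20 and 52 in control replicates 1, 2 and 3. In CPM these were 11.4, 14.8 and 4.08 in siFTO replicates 4, 5 and 6, against 2.42, 1.34 and 2.69 in control replicates 1, 2 and 3. Every siFTO library lay above every control, but siFTO replicate 6 stood much closer to the controls than to the other siFTO libraries. The log2 fold change was 2.23 (SE 0.43, edgeR adjusted p = 0.00375), or 4.68-fold, the largest of the 10 members. It was 2.58 (edgeR adjusted p = 1.58e-07) without siFTO replicate 6 and 0.92 (adjusted p = 0.114) for that library alone. Leaving out control replicate 2 alone ended the call (log2 fold change 1.98, edgeR adjusted p = 0.0522), while the other 5 leave-outs kept it. The siFTO replicates 4 and 5, in which TNFAIP3 was highest, were also those with mesenchymal markers at 1772 and 2165 CPM, and the part of these markers was not tested. Its promoter holds the adjacent kappaB matches printed above, and any part of these in its transcript level was not tested.

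BIRC3 encodes cIAP2, a ubiquitin ligase of TNF receptor complexes that also marks the kinase NIK for degradation. Its counts were 53, 52 and 42 in siFTO replicates 4, 5 and 6, against 22, 31 and 28 in control replicates 1, 2 and 3. In CPM these were 3.75, 3.23 and 3.06 in siFTO replicates 4, 5 and 6, against 2.05, 2.08 and 1.45 in control replicates 1, 2 and 3. The siFTO libraries lay close together and above all controls, siFTO replicate 6 included. The log2 fold change was 0.87 (SE 0.24, edgeR adjusted p = 0.0168), and it was 0.75 (edgeR adjusted p = 0.191) in siFTO replicate 6 alone. The call was lost without control replicate 1, 2 or 3 or siFTO replicate 4 (adjusted p of 0.0576 to 0.0880), with no filter (edgeR adjusted p = 0.0657) and after the correction for gene length and GC content (log2 fold change 0.62, edgeR adjusted p = 0.0669).

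**Figure D4:**
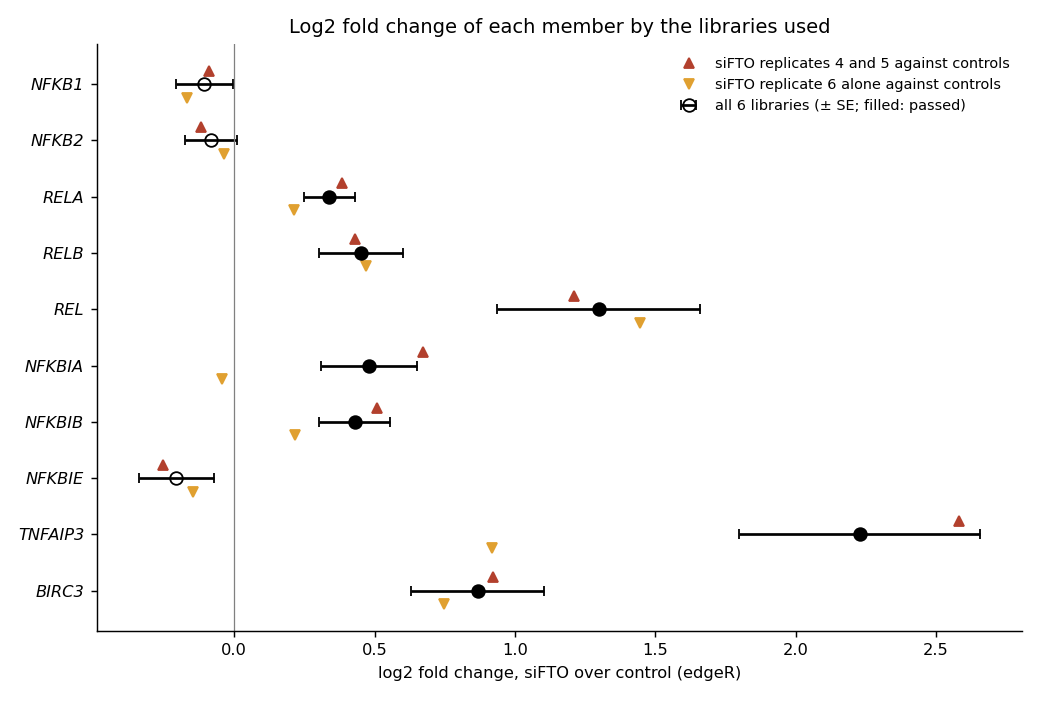
Log2 fold change of each member, siFTO over control (x axis, edgeR), with all 6 libraries (circles with SE, filled where the adjusted p passed 0.05), with siFTO replicates 4 and 5 against the controls (upward triangles) and with siFTO replicate 6 alone against the controls (downward triangles). The triangles lie far apart for TNFAIP3 (2.58 and 0.92) and NFKBIA (0.67 and -0.04) and close together for RELB and BIRC3.

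The rest of the pathway was read from 6 lists by role, 105 genes in all. Among the kinases and their partners 5 of 12 were higher and 0 lower, with a median log2 fold change of 0.39. Over all genes tested 19.5% were higher and 17.9% lower, with a median of 0.0057. CHUK, which encodes IKK-alpha, was at 54.9, 50.7 and 56.9 CPM in siFTO replicates 4, 5 and 6, against 35.5, 33.3 and 36.6 CPM in control replicates 1, 2 and 3 (log2 fold change 0.62, edgeR adjusted p = 0.00128). MAP3K7, which encodes TAK1, and its partners TAB2 and TAB3 had log2 fold changes of 0.51, 0.58 and 0.66 (edgeR adjusted p of 0.00252, 0.00198 and 0.00211). These genes also passed with siFTO replicate 6 alone, at log2 fold changes of 0.70 for CHUK, 0.50 for MAP3K7, 0.47 for TAB2 and 0.73 for TAB3 (edgeR adjusted p of 0.0109, 0.0456, 0.0480 and 0.0148). The length and GC correction lowered these values to 0.39 for CHUK, 0.27 for MAP3K7, 0.38 for TAB2 and 0.32 for TAB3 (edgeR adjusted p of 0.00608, 0.0270, 0.00722 and 0.0380). The kinase list had 5 higher genes on leaving out any library other than siFTO replicate 6, without which 7 were higher. The other kinase gene called was TBK1, an IKK-related kinase (log2 fold change 0.47, edgeR adjusted p = 0.00969). TAB1, the most abundant of the kinase genes that did not pass, had a log2 fold change of -0.21 (edgeR adjusted p = 0.0913). It was the 1 kinase gene lower at an unadjusted p under 0.05 by edgeR. The count lower at that unadjusted threshold was 0 by DESeq2 and 1 by limma voom. At the adjusted threshold it was 0 by both.

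Of 15 other inhibitors tested of 16 listed, 7 were higher and 0 lower, with a median log2 fold change of 0.36. Over all genes tested 19.5% were higher and 17.9% lower. At an unadjusted p under 0.05, COMMD1 was lower by edgeR, and the count lower was 1 by DESeq2 and 0 by limma voom. NFKBIZ, which encodes the nuclear protein IkB-zeta, had a log2 fold change of 1.05 (edgeR adjusted p = 0.00347), at 8.63, 9.08 and 5.98 CPM in siFTO replicates 4, 5 and 6 against 3.72, 3.68 and 3.98 CPM in control replicates 1, 2 and 3, and siFTO replicate 6 alone gave 0.65 (adjusted p = 0.113). RNF11, a partner of A20, had 0.57 (edgeR adjusted p = 0.00221), and it held with siFTO replicate 6 alone, at 0.49 (adjusted p = 0.0389). CYLD, a deubiquitinase of the pathway, had 0.85 (edgeR adjusted p = 0.00573, lost at 0.0562 without control replicate 1 and 0.0594 without control replicate 2), and 0.50 after the length and GC correction (adjusted p = 0.0344). NLRC5, a regulator of MHC class I genes, had 0.52 (edgeR adjusted p = 0.0177), lost at up to 0.0806 without control replicate 1, 2 or 3 or siFTO replicate 4 or 5. TNIP1, the A20-binding protein ABIN1, was at 166 ± 8.19 CPM in siFTO libraries and 175 ± 13.4 CPM in control libraries (SD, n = 3 each) and did not pass. The list had 3, 4, 5, 5, 4 and 9 higher genes without control replicates 1, 2 and 3 and siFTO replicates 4, 5 and 6, and 1 with siFTO replicate 6 alone.

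Among the receptors 4 of the 11 tested were higher and 3 lower, of 14 listed, with a list median log2 fold change of 0.24. Of all genes tested, 19.5% were higher and 17.9% lower, with a median of 0.0057. The TNF receptor gene TNFRSF1A had a log2 fold change of -0.47, the lymphotoxin receptor gene LTBR of -0.52 and the BAFF receptor gene TNFRSF13C of -0.86 (edgeR adjusted p of 0.00456, 0.00209 and 0.00507). The second TNF receptor gene TNFRSF1B had 0.45, and the interleukin 1 receptor genes IL1R1 and IL1RAP had 1.13 and 0.97 (edgeR adjusted p of 0.00541, 0.00749 and 0.00597). TNFRSF1A and LTBR were at 93.0 to 115 CPM and 95.9 to 98.2 CPM in siFTO libraries, against 135 to 147 CPM and 131 to 153 CPM in control libraries. With siFTO replicate 6 alone TNFRSF1A, LTBR and TNFRSF1B still passed (edgeR adjusted p of 0.0176, 0.0406 and 0.0248), whereas IL1R1 and IL1RAP gave 0.313 and 0.173. The length and GC correction gave 0.64 for IL1RAP (edgeR adjusted p = 0.0230). Without control replicate 1, 2 or 3 IL1R1 fell short (edgeR adjusted p of 0.0626, 0.0763 and 0.0502), as did IL1RAP without control replicate 2 (0.0513) and TNFRSF1B without control replicate 1 (0.0541). The viral RNA sensor gene TLR3 had 0.68 (edgeR adjusted p = 0.0445), a call kept only without siFTO replicate 5 among the 6 leave-outs (0.0644 to 0.166 in the rest) and also lost in DESeq2 (0.0875), with upper-quartile scaling (0.0531), with no filter (0.140) and after the length and GC correction (0.143). Without control replicates 1, 2 and 3 the list had 1, 1 and 2 higher genes.

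Adaptors and ubiquitin ligases had 7 higher and 4 lower genes among the 22 tested of 22 listed, with a list median log2 fold change of 0.18. Of all genes tested, 19.5% were higher and 17.9% lower, with a median of 0.0057. The lower genes were thus near the background share. RBCK1 and SHARPIN, subunits with RNF31 of the linear ubiquitin ligase, had log2 fold changes of -1.03 and -0.44, while RNF31 had 0.60 (edgeR adjusted p of 0.000327, 0.0108 and 0.0150). RBCK1 was at 85.5, 92.9 and 87.7 CPM in siFTO replicates 4, 5 and 6, against 178, 208 and 159 CPM in control replicates 1, 2 and 3, and passed in every leave-out. IRAK2, a kinase-like adaptor of interleukin 1 receptors, had 1.66 (edgeR adjusted p = 0.00834), at 11.5, 12.9 and 4.01 CPM in siFTO replicates 4, 5 and 6 against 2.23, 2.68 and 3.88 CPM in control replicates 1, 2 and 3. The adaptor genes TRAF1 and TRAF5 had -0.55 and -0.35 (edgeR adjusted p of 0.0347 and 0.0317), and neither held when a library was left out (0.0563 to 0.120 for TRAF1, 0.0607 to 0.122 for TRAF5), except TRAF5 without siFTO replicate 6. Both calls were lost with library totals (0.0889 for TRAF1 and 0.151 for TRAF5) and that of TRAF1 with no filter (0.107), while the length and GC correction gave -0.62 for TRAF5 (edgeR adjusted p = 0.00278). BIRC2, which encodes cIAP1, a close relative of the BIRC3 protein, had 0.62 and the ligase gene TRAF6 had 0.63 (edgeR adjusted p of 0.00334 and 0.0223). The IRAK2 call was lost without control replicate 1 or 2 (0.0798 and 0.0829), that of TRAF6 without control replicate 2 or 3 or siFTO replicate 4 or 5 (0.0721 to 0.0971), that of RNF31 without control replicate 1 or 2 or siFTO replicate 5 (0.0526 to 0.0894), and that of SHARPIN without control replicate 2 or 3 or siFTO replicate 4 (edgeR adjusted p of 0.0516 to 0.0672) and after the length and GC correction (0.0560). The list had 2 higher and 2 lower genes without control replicate 1, 4 and 1 without control replicate 2, 6 and 1 without control replicate 3, 5 and 1 without siFTO replicate 4, 5 and 2 without siFTO replicate 5, and 9 and 2 with library totals. With siFTO replicate 6 alone it had 0 higher and 3 lower.

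Ligand genes were mostly at or near silence, and 3 of 13 passed the filter, which asks for counts in at least as many libraries as a group holds. Of these 1 was higher and 1 lower, where 19.5% of all genes tested were higher and 17.9% lower. The median log2 fold change was -0.07. TNFSF15 had a log2 fold change of 1.03 and TNFSF12 of -0.71 (edgeR adjusted p of 0.00114 and 0.00405), the value of TNFSF12 being -0.44 after the length and GC correction (adjusted p = 0.0211). Without control replicate 1 the list had 2 higher genes and without siFTO replicate 6 it had 4, among 6 tested in each case. IL1B was left out by the filter although its counts were 103, 119 and 3 in siFTO replicates 4, 5 and 6, against 1, 0 and 0 in control replicates 1, 2 and 3. IL1A had counts of 34, 56 and 4 in the siFTO libraries, against 2, 5 and 4 in the controls. TNF had 3, 3 and 0 counts in the siFTO libraries, and 0 in each control library. The IL1A and IL1B transcripts were highest in the same libraries, siFTO replicates 4 and 5, in which TNFAIP3, NFKBIA and the mesenchymal markers were highest.

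Of 28 transcriptional targets of NF-kB, 20 were tested, 10 were higher and 0 lower, with a median log2 fold change of 0.42. Over all genes tested 19.5% were higher and 17.9% lower. At an unadjusted p under 0.05, EFNA1 was lower by edgeR, and the count lower was 1 by DESeq2 and 1 by limma voom. CXCL8, a neutrophil chemokine, was at 39.4, 48.2 and 0.875 CPM in siFTO replicates 4, 5 and 6, against 0.465, 0.335 and 0.310 CPM in control replicates 1, 2 and 3. PLAU, the urokinase gene, was at 68.6, 84.9 and 8.60 CPM in siFTO replicates 4, 5 and 6, against 7.82, 7.37 and 6.61 CPM in control replicates 1, 2 and 3. Both were high in the libraries in which TNFAIP3, the summed mesenchymal markers and the collagen genes of the fibroblast list were high. Their log2 fold changes were 6.34 and 2.91 (edgeR adjusted p of 0.00361 and 0.00562), and both fell short in limma voom (adjusted p of 0.193 and 0.0641). The log2 CPM of siFTO replicate 6 less the control mean was only 1.01 for CXCL8 and 0.24 for PLAU. Both calls were also lost without control replicate 1, 2 or 3, at an adjusted p of 0.0522 to 0.0606 for CXCL8 and 0.0654 to 0.0738 for PLAU from edgeR. CXCL2, another chemokine gene, was at 7.36, 6.84 and 1.24 CPM in siFTO replicates 4, 5 and 6, against 0.744, 1.41 and 1.499 CPM in control replicates 1, 2 and 3, so siFTO replicate 6 lay within the control range. Its log2 fold change of 2.03 (edgeR adjusted p = 0.0159) was lost without control replicate 1, 2 or 3 or siFTO replicate 4 (0.0665 to 0.112) and in limma voom (0.0945), and it was -0.03 with siFTO replicate 6 alone (adjusted p = 0.980). PTGS2, which encodes cyclooxygenase 2, was at 7.71, 7.59 and 5.32 CPM in siFTO replicates 4, 5 and 6, against 1.12, 0.670 and 0.878 CPM in control replicates 1, 2 and 3, and passed with siFTO replicate 6 alone (log2 fold change 2.60, edgeR adjusted p = 0.000883). BCL2L1, which encodes the survival protein BCL-XL, was at 225 ± 3.67 CPM in siFTO libraries and 252 ± 26.5 CPM in control libraries (SD, n = 3 each) and did not pass. With the length and GC correction 2 of the targets were lower. The list had 4, 5, 6, 7, 9 and 16 higher genes without control replicates 1, 2 and 3 and siFTO replicates 4, 5 and 6, and 2 with siFTO replicate 6 alone.

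**Figure D5:**
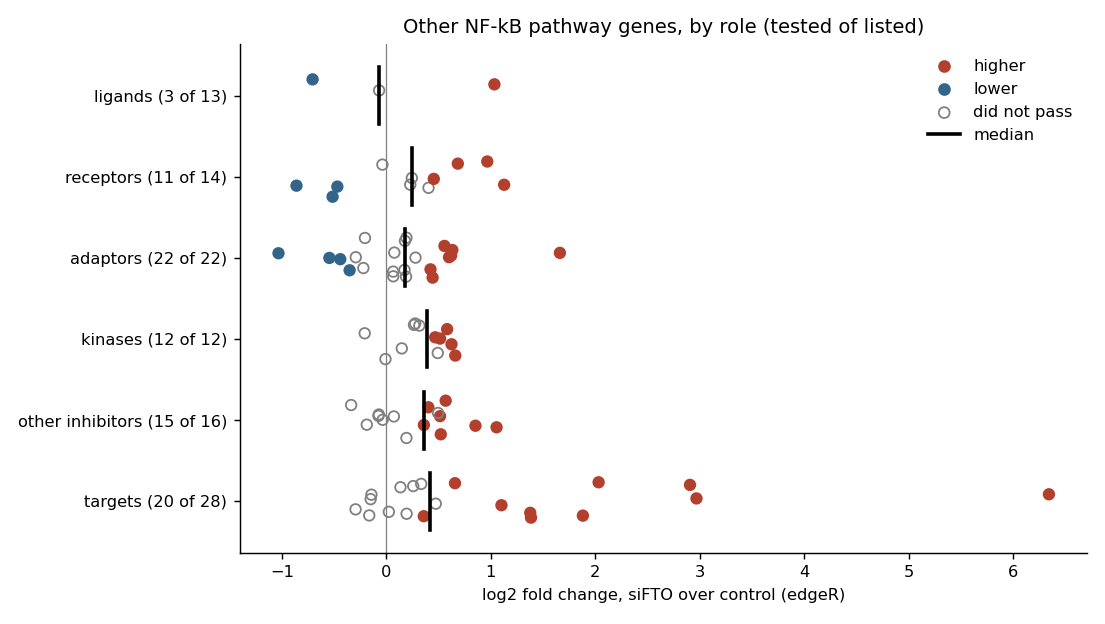
Log2 fold change, siFTO over control (x axis, edgeR), of the tested genes of 6 NF-kB pathway lists (rows, with the number tested of those listed). Filled red points were higher, filled blue points lower and open points did not pass an adjusted p of 0.05, and the vertical bars are list medians. The kinases have 5 red and 0 blue points, the receptors 4 red and 3 blue.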

How the data were processed

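RNA-seq of 253J cells was analysed from 3 siFTO and 3 control libraries, grouped by their labels. The authors deposited 1 file of raw counts of reads per gene for each sample, with no normalization, and the processing notes list TopHat2 2.0.11 and HTSeq with the builds hg19 and GRCh37. Neither the annotation release nor the HTSeq version or strand option is given in the sources used here, so overlapping genes cannot be told apart. Of 60483 gene IDs, 56321 (93.1%) had a symbol, and 37 mitochondrial IDs were at 0 in every library.

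Genes with low counts were removed (filterByExpr, minimum count 10, minimum total 15), libraries were scaled by TMM, and edgeR 4.0.16 in R 4.3.3 fitted a quasi-likelihood model with group as the only term. Tests were two-sided, with Benjamini-Hochberg adjustment over 14965 genes and a threshold of 0.05. The SE is the log2 fold change divided by the square root of F. Library totals of 10991789 to 19891269 limit the precision for members with few counts (REL, BIRC3 and TNFAIP3).

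Alternatives were DESeq2-type, upper-quartile and library-total scaling, no filter, at least 10 counts in every library, DESeq2 1.42.0, limma 3.58.1 voom, leaving out each library, siFTO replicate 6 alone, and a spline correction for gene length and GC content (GENCODE 29). Lengths and overlaps were taken from GENCODE 29 on GRCh38. Promoters were those of RefSeq on GRCh38.p14. The members, gene lists and alternatives were chosen with earlier results of these data known. All members are named. Of each pathway list up to 4 genes in each direction with the largest log2 fold change and up to 2 others of high CPM were named, and IL1A, IL1B, TNF, TBK1, COMMD1 and EFNA1 were chosen after their values were seen.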

Additional observations from a re-analysis of the deposited data

How the results depend on the processing

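No paired analysis was possible because the groups share no replicate numbers. The count of members higher was 7, and 5 to 7 under the other scalings, filters and tools and the length and GC correction. It was 1 to 7 on leaving out a library, and 0 with siFTO replicate 6 alone. The members lower were 0 under every alternative. Over all genes, 2913 were higher and 2684 lower, against 1383 to 3826 higher and 1589 to 2928 lower on leaving out a library, 970 higher and 926 lower with siFTO replicate 6 alone, and 1787 lower with library totals. Of all calls 52.0% were higher, against 69.6% with library totals, 47.6% with upper-quartile scaling, 61.4% with no filter and 41.3% with the length and GC correction. With siFTO replicate 6 alone the log2 fold change reversed for NFKBIA (-0.042) and CXCL2 (-0.027), and the cause was not tested. REL could not be fitted with at least 10 counts in every library. Low counts limit REL, BIRC3 and TNFAIP3 in the controls.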
